A study of Mus musculus with 1528 samples.

Results

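The integrated-stress-high macrophages were the 115 cells, of 1439 kept cells in all, with the highest combined level of *Ddit3*, *Trib3*, *Chac1*, *Asns* and *Atf3*. The score of a cell was the mean over these 5 genes of log2(CPM + 1), where CPM is the count scaled to 1000000 gene fragments of the cell, and the members were the top 8% of the kept cells of both treatments together. The lowest member scored 5.81 and the highest cell outside 5.79, the highest member scored 8.88, and the medians were 6.76 in the members and 3.32 in the other 1324 kept cells. There was no gap in the scores at this point: 15 members lay within 0.25 above it and 23 other cells within 0.25 below it. The members were thus chosen by the measured values of these 5 genes, and their levels are given as a description with no test.

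The cells were macrophages grown with M-CSF from the bone marrow of wild-type C57BL/6 mice (BMDMs). Over 24 h they received IL4+IL13, or the same cytokines plus TNF (IL4+IL13+TNF), all at 10 ng/ml, and they were sorted live as single cells into 384-well plates and sequenced with the full-length method Smart-seq2. Cells of 2 separate mice, taken here as the numbers 1 and 2 of the sample names, filled 4 plates, and both treatments of a mouse shared its plates: IL4+IL13 cells took rows A to H and IL4+IL13+TNF cells rows I to P, so plate row and treatment cannot be told apart. A mouse with a treatment was a sample here, which gave 4 samples with 362 and 359 kept cells for IL4+IL13 and 363 and 355 for IL4+IL13+TNF (mouse 1 and mouse 2). Kept cells held 200235 to 6122892 gene fragments, median 471020, and 5114 to 14067 detected genes.

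In the integrated stress response, kinases that sense amino acid shortage, misfolded protein in the endoplasmic reticulum (ER), double-stranded RNA or heme lack phosphorylate the translation factor eIF2α. General translation then falls while that of the transcription factor ATF4 rises, and ATF4 switches on genes for amino acid synthesis, amino acid uptake and tRNA charging, together with the next regulators CHOP (encoded by *Ddit3*) and ATF3. *Trib3* encodes a pseudokinase that binds ATF4 and limits it, *Chac1* an enzyme that breaks down glutathione, and *Asns* asparagine synthetase. In macrophages the pathway is known for linking nutrient and ER stress with inflammatory output.

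A pair of short DNA elements are known from genes of this kind, and the windows that held them are shown because 4 of the 5 selecting genes hold the first. The CARE element, bound by ATF4 together with C/EBP factors, was searched as TGATGNAA and the ER stress element (ERSE), bound by ATF6 with NF-Y, as CCAAT, 9 further bases and CCACG, both on either strand and with no allowance for mismatches. The searched windows ran from 250 bases before to 50 bases after each RefSeq start site (build GRCm38.p6, the assembly behind mm10). The CARE letters were found in 4.51% of 27025 genes and in 4 of the 5 selecting genes. Each window of 30 bases below reads 5′ to 3′ on the strand of the gene, with the CARE letters in capitals.
*Asns* (chr6:7693214-7693243, minus strand): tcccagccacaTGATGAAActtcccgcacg
*Atf3* (chr1:191183425-191183454, minus strand): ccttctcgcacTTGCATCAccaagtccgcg
*Chac1* (chr2:119351038-119351067, plus strand): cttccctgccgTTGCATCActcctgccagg
*Trib3* (chr2:152344028-152344057, minus strand): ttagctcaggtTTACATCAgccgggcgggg
*Nupr1* (chr7:126625562-126625591, minus strand): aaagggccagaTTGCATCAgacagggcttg
*Herpud1* (chr8:94386306-94386335, plus strand): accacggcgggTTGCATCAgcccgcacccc
*Aars* (chr8:111033840-111033869, plus strand): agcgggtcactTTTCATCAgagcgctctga

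The match shown is the one nearest the start site. It lay 23 bases before the start site in *Asns*, 110 in *Atf3*, 193 in *Chac1*, 110 in *Nupr1* and 112 in *Herpud1*, whereas those of *Trib3* and *Aars* began 14 and 9 bases after it. *Aars* held a further match, 112 bases before the same start site. The *Chac1* match is shown with its surroundings because this gene led the score in 36 members. These 237 bases (chr2:119350992-119351228, plus strand) end just before the start of the gene in the deposited count table.
*Chac1* upstream: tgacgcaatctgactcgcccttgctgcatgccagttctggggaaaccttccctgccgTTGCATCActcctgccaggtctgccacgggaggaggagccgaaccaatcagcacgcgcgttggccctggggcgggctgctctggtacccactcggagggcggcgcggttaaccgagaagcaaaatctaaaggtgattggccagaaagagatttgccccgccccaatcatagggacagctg
No such letters were in the window of *Ddit3*. Among the lists of known pathway genes used below, CARE letters were in 2 of 9 regulators with a promoter in the RefSeq table, in 2 of 9 amino acid synthesis genes and in 3 of 9 other targets. Fewer than 80% of the transporters and of the tRNA synthetases had an entry, so no share was taken for them. Of the 10 highest score correlates named below, 9 had an entry, and CARE letters were in 1 of these, *Aars*. The ERSE letters were in 0.137% of all genes, in none of the 5 selecting genes and in 8 of 16 ER chaperone genes with an entry, while CARE letters were in none of these 16. Windows of 3 of the 8 are shown with the ERSE letters in capitals, since the ER chaperones are compared with the ATF4 targets below.
*Hspa5* (chr2:34772020-34772049, plus strand): cttcaCCAATCGGAGGCCTCCACGacgggg
*Hsp90b1* (chr10:86705527-86705556, minus strand): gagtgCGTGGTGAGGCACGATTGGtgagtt
*Syvn1* (chr19:6046527-6046556, plus strand): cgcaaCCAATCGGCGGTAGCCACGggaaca

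The 5 selecting genes did not carry the score equally. The median *Trib3* level over the members of a sample was 62.7 and 489 CPM (mouse 1 and mouse 2, IL4+IL13) and 93.1 and 150.4 CPM (the same mice, IL4+IL13+TNF), against a median of 0 CPM in the other cells of every sample. *Trib3* counts were found in 92.2% of the members and 21.7% of the other cells. *Chac1* medians in members were 26 and 0 CPM (mouse 1 and mouse 2, IL4+IL13) and 42.1 and 61 CPM (the same mice, IL4+IL13+TNF), again against 0 CPM in the other cells, with counts in 75.7% of the members and 11.1% of the other cells. The 5 members of IL4+IL13 mouse 2 thus differed from those of the other samples, with the highest median *Trib3* and a median *Chac1* of 0 CPM. *Ddit3* medians were 152 and 882 CPM (mouse 1 and mouse 2, IL4+IL13) and 189 and 375 CPM (the same mice, IL4+IL13+TNF) in members and 55.4, 7.08, 43.8 and 42.9 CPM in the other cells of the same samples in the same order. For *Asns* they were 270.5 and 77.2 CPM (mouse 1 and mouse 2, IL4+IL13) and 335 and 181 CPM (the same mice, IL4+IL13+TNF) in members against 53.3, 2.19, 72.9 and 5.26 CPM. *Atf3* set the members least apart, with 388 and 366 CPM (mouse 1 and mouse 2, IL4+IL13) and 412 and 456 CPM (the same mice, IL4+IL13+TNF) against 276, 213, 248 and 182 CPM. It was detected in 97.7% of the other cells too. Measured against the median of the other kept cells, *Trib3* was the gene furthest above it, on the log2(CPM + 1) scale, in 76 members, *Chac1* in 36, *Asns* in 2, *Ddit3* in 1 and *Atf3* in none.

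**Figure D1:**
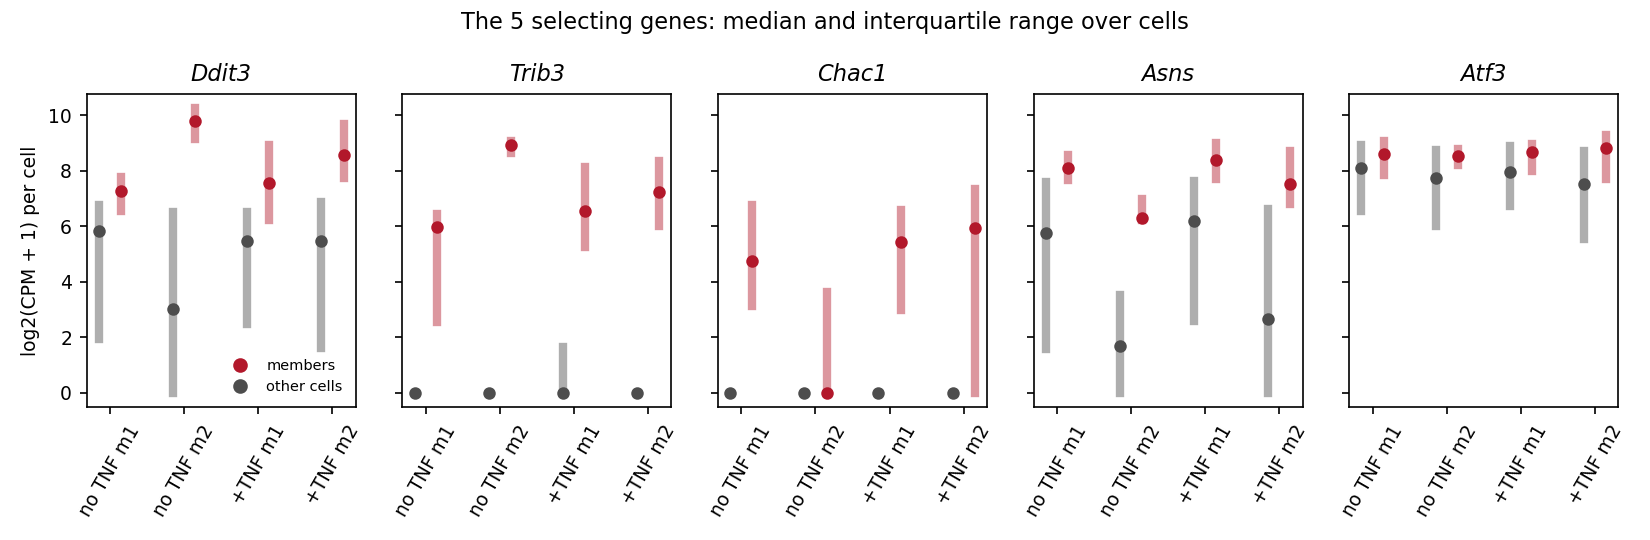
Level per cell of the 5 selecting genes, as log2(CPM + 1) on the vertical axis, in members (red) and other kept cells (grey) of each sample (m1 and m2, mouse 1 and 2). Points are medians and bars the interquartile range over cells; medians of *Trib3* and *Chac1* are 0 in the other cells of all 4 samples, while the *Atf3* ranges of both classes overlap.

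All 5 genes were detected together in 77 of the 115 members and 4 of them in the remaining 38, compared with 27 and 258 of the 1324 other cells. Only 1 member was above the 90th percentile of the other cells for all 5 genes, 27 members were so for 4 genes, 42 for 3, 39 for 2 and 6 for 1. Across the kept cells of a sample, the mean Spearman rho over the 4 samples was between 0.155 and 0.249 for the pairs among *Ddit3*, *Trib3*, *Chac1* and *Asns*. *Atf3* stood apart, with mean rho between -0.045 and 0.045 with each of these 4 genes. These correlations are over cells of the same plates, which share library preparation and depth, and they are descriptions. Within the members, over all samples, *Ddit3* and *Trib3* had a rho of 0.518 and *Trib3* and *Chac1* one of -0.271, values that the selection itself shapes.

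The deposited table holds *Ddit3* (ENSMUSG00000025408) at chr10:127290774-127296288, *Trib3* (ENSMUSG00000032715) at chr2:152337422-152344032, *Chac1* (ENSMUSG00000027313) at chr2:119351229-119354381, *Asns* (ENSMUSG00000029752) at chr6:7675169-7693254 and *Atf3* (ENSMUSG00000026628) at chr1:191170296-191218039, all in build mm10. A second, short *Ddit3* entry overlaps the first, and fragments on both were counted for neither, so the *Ddit3* level is a lower value than its reads.

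The share of members differed between the samples. With IL4+IL13 alone, 29 of 362 kept cells of mouse 1 were members, 8.01% (exact Clopper-Pearson 95% interval 5.43% to 11.3%), and 5 of 359 of mouse 2, 1.39% (0.454% to 3.22%). With IL4+IL13+TNF they were 49 of 363 in mouse 1, 13.5% (10.2% to 17.5%), and 32 of 355 in mouse 2, 9.01% (6.25% to 12.5%). Both IL4+IL13+TNF shares lay above both IL4+IL13 shares, an order that ended with the top 12% of cells (11.8% in IL4+IL13+TNF mouse 2 against 12.98% in IL4+IL13 mouse 1), with a score without *Ddit3* (7.61% against 8.01%) and with one without *Trib3* (8.73% against 9.39%). The mean was 4.70% ± 4.68 (SD, n = 2 mice) with IL4+IL13 and 11.3% ± 3.17 (SD, n = 2 mice) with IL4+IL13+TNF, a difference of 6.55 percentage points, 5.49 in mouse 1 and 7.62 in mouse 2. The two-sided exact permutation test over the 4 samples gave p = 0.333, the smallest that 2 against 2 samples allow, so the test could not reach its threshold. The difference was 3.25 points without IL4+IL13 mouse 2 and 9.86 points without IL4+IL13 mouse 1. Intervals cover counting error only.

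**Figure D2:**
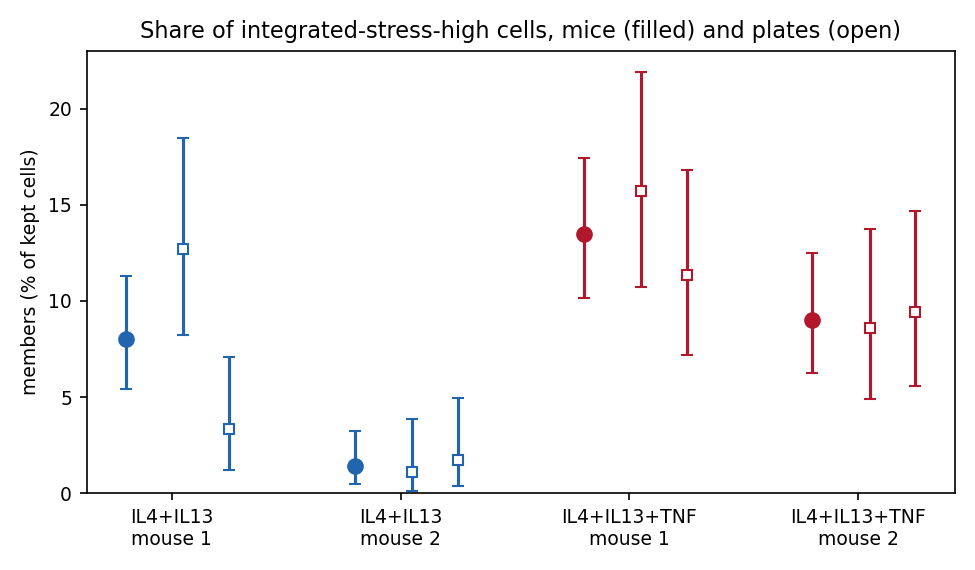
Members as a percentage of kept cells (vertical axis) in each mouse (filled circles) and on each of its 2 plates (open squares), IL4+IL13 in blue and IL4+IL13+TNF in red, with exact 95% intervals. IL4+IL13 mouse 1 shows 12.7% on one plate and 3.31% on the other, and IL4+IL13 mouse 2 holds the lowest shares.

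Plates of 1 mouse were not alike. In IL4+IL13 mouse 1, 23 of 181 kept cells on plate 2 were members (12.7%) and 6 of 181 on plate 3 (3.31%), and rows B and C of plate 2 alone held 6 and 7 of the 23. For IL4+IL13+TNF the shares of the same plates were 15.7% and 11.4%. In mouse 2 the plates gave 1.08% and 1.72% without TNF, and 8.57% and 9.44% once TNF was added. Within every plate, then, the IL4+IL13+TNF share was the higher one. Wells on the plate edge held 19 of the 115 members (16.5%), and their share of the other cells was of the same order (19.03%).

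Members held slightly more fragments and genes than other cells and a lower mitochondrial share. The median fragment number was 489334 in members and 467051 in other cells, and members were higher in 4 of 4 samples. The median number of detected genes was 8217 against 7804, and with every cell thinned to 200000 fragments 7123 against 6612, again higher in 4 of 4 samples. Mitochondrial transcripts made up a median of 2.80% of the fragments in members and 3.21% in other cells, and they were lower in members in 4 of 4 samples, as was the share of spike-in RNA (0.0379% against 0.0529%). Each of these gave p = 0.125 in the two-sided exact sign-flip test over 4 samples, the smallest it can give. A score of 10 cell cycle genes differed in sign between the samples, being higher in members in 3 of 4 (exact p = 0.5). The part of these differences in the results below was not tested, apart from a score on thinned counts given in the closing section.

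Members carried macrophage markers. All 8 markers were detected among the members of every sample, and their summed level had a median of 14231 CPM in members (2010.3 to 112396) and 17531 CPM in other cells. The summed neutrophil, lymphocyte, mast cell or basophil, erythroid and stromal markers each had a median of 0 CPM in members. Their highest summed level in a member was 312 CPM, for the mast cell or basophil list. Dendritic markers summed to a median of 7.54 CPM in members and 7.70 CPM in other cells, and reached 11291 CPM in an other cell and 426 CPM in a member. Osteoclast markers summed to medians of 558 CPM and 433 CPM, and their part in the results was not tested.

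Genes of the integrated stress response outside the score were mostly higher in the members. Of the 52 genes on 5 lists of known ATF4 and CHOP targets, 48 had enough counts to be tested, and counts of members and of other cells were compared within the 4 samples by edgeR's quasi-likelihood test. None of the 48 passed the threshold of an adjusted p of 0.05, and neither did any of the 17215 genes tested, the 5 selecting genes left out (0% called higher and 0% called lower). At an unadjusted p under 0.05, 27 of the 48 were higher and 1 lower, where 1.71% of all genes were higher and 3.35% lower. In each of the 4 samples the members were above the other cells for 28 of the 48, against 5.8% of all genes, and below them for 1 (*Bcl2l11*), against 12.1%. The median log2 fold change of the 48 was 0.81, and that of all genes -0.18. DESeq2 on the same sums called 19 of the 48 higher and none lower, where it called 0.567% of all genes higher and 1.03% lower. The 4 genes without enough counts were *Cth*, *Slc6a9*, *Fgf21* and *Stc2*; *Fgf21* had a count in 0 of 115 members, and *Stc2* in 1. Mean log2 values tested with limma gave 1 gene called higher, *Nupr1* (adjusted p = 0.0279), which is named by its list. The member sum of IL4+IL13 mouse 2 rested on 5 cells.

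**Figure D3:**
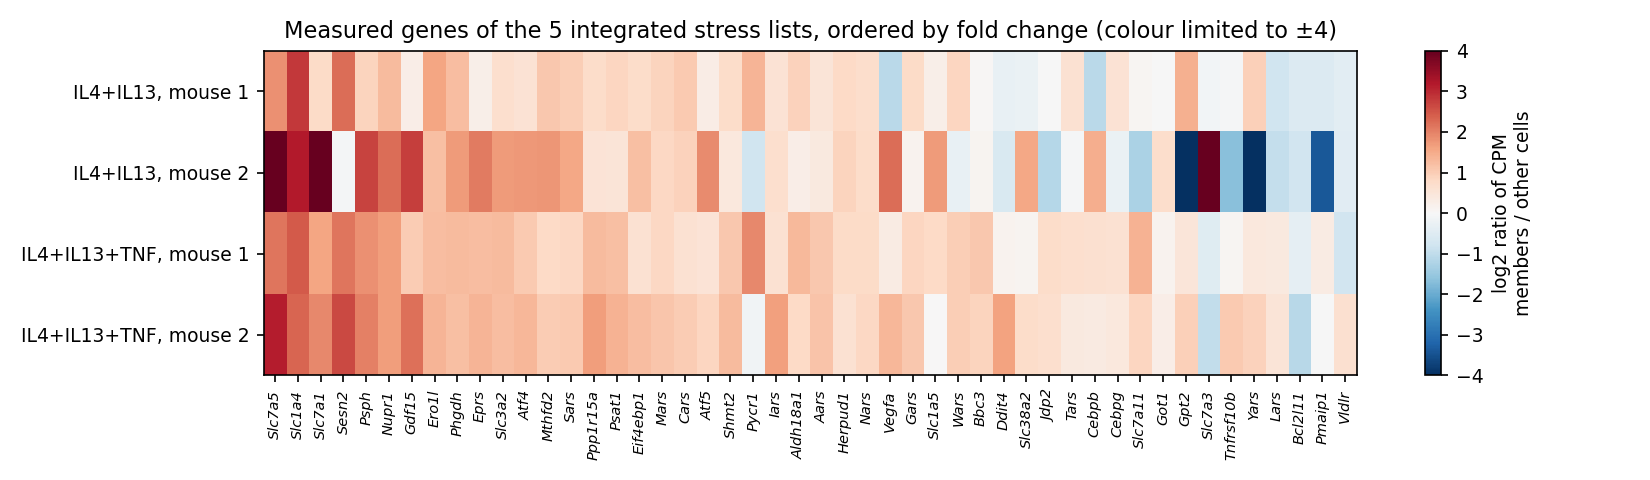
Log2 ratio of members to other cells (colour, CPM with 0.5 added) for the 48 tested stress genes (columns) in the 4 samples (rows), ordered by the fitted fold change. Red columns run through all 4 rows for most genes on the left, and the row of IL4+IL13 mouse 2, with 5 members, holds the most extreme colours (the scale stops at 4 in either direction).

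Among the regulators, 5 of 10 were higher in 4 of 4 samples and the list median was 0.92 on the log2 scale. *Atf4*, the central transcription factor, stood at 365 and 616 CPM (mouse 1 and mouse 2, IL4+IL13) and 475 and 625 CPM (the same mice, IL4+IL13+TNF) in members, and at 243, 184, 232 and 247 CPM in the other cells of the same samples. Members were above other cells in each sample and the ranges did not overlap. How many of all tested genes showed such a lack of overlap was not counted, here or for the genes below. The log2 fold change was 1.18 ± 0.21 (SE), with an edgeR adjusted p of 0.625 and a DESeq2 adjusted p of 0.0247. *Nupr1*, a small stress-induced chromatin protein, was at 164 and 323 CPM (mouse 1 and mouse 2, IL4+IL13) and 254 and 293 CPM (the same mice, IL4+IL13+TNF) in members against 68.2, 68.1, 79.3 and 91.5 CPM in other cells, again without overlap. Its log2 fold change was 1.71 ± 0.20 (edgeR adjusted p = 0.424, DESeq2 adjusted p = 6.55e-06). *Ppp1r15a* encodes GADD34, which brings a phosphatase to eIF2α, and its log2 fold change was 1.07 ± 0.26. *Eif4ebp1*, a translation repressor, gave 0.94 ± 0.17 and *Atf5*, a relative of *Atf4*, 0.90 ± 0.33. *Sesn2*, which restrains mTORC1 when amino acids are short, was at 17.2 and 6.67 CPM (mouse 1 and mouse 2, IL4+IL13) and 25.3 and 43.7 CPM (the same mice, IL4+IL13+TNF) in members and 3.27, 7.09, 5.3 and 6.66 CPM in other cells. It was higher in 3 of 4 samples and level in IL4+IL13 mouse 2, and its log2 fold change was 1.90 ± 0.60 (edgeR adjusted p = 0.928, DESeq2 adjusted p = 0.0299).

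Of 9 tested genes of amino acid synthesis, among them enzymes of the serine, one-carbon, proline, alanine and aspartate pathways, 6 were higher in 4 of 4 samples, and the list median was 0.88. *Phgdh*, which opens the serine pathway, had 142 and 107 CPM (mouse 1 and mouse 2, IL4+IL13) and 149 and 112 CPM (the same mice, IL4+IL13+TNF) in members and 59.7, 32.6, 61.3 and 48.5 CPM in other cells. Each member value was above each value of the other cells. The log2 fold change was 1.36 ± 0.18 (edgeR adjusted p = 0.472, DESeq2 adjusted p = 5.92e-06). *Psph*, the last enzyme of that pathway, was at 76.3 and 132 CPM (mouse 1 and mouse 2, IL4+IL13) and 103 and 74.8 CPM (the same mice, IL4+IL13+TNF) in members and 41.1, 19.9, 28.9 and 18.3 CPM in other cells, a log2 fold change of 1.87 ± 0.34. *Mthfd2*, the mitochondrial folate enzyme, was at 221 and 172 CPM (mouse 1 and mouse 2, IL4+IL13) and 268 and 221 CPM (the same mice, IL4+IL13+TNF) against 105, 50.5, 156 and 108 CPM, with a log2 fold change of 1.16 ± 0.20. For *Psph* and *Mthfd2* too the groups did not overlap. *Psat1* gave 1.00 ± 0.23, *Shmt2* 0.88 ± 0.22 and *Aldh18a1*, which starts proline synthesis, 0.84 ± 0.31. With a score without *Trib3*, *Psat1* was at 0.18.

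Amino acid transporters had the highest median of the 5 lists, 0.95, with 5 of 8 tested genes higher in 4 of 4 samples. *Slc7a5*, the light chain of the leucine transporter LAT1, was at 18.4 and 75.6 CPM (mouse 1 and mouse 2, IL4+IL13) and 20.2 and 32.3 CPM (the same mice, IL4+IL13+TNF) in members and at 4.83, 2.07, 4.22 and 3.25 CPM in other cells, a log2 fold change of 3.12 ± 0.68 (edgeR adjusted p = 0.813, DESeq2 adjusted p = 0.000542). It was detected in 60% of the members and 15.2% of the other cells. Its partner chain *Slc3a2* was abundant in all cells, with 428 and 713 CPM (mouse 1 and mouse 2, IL4+IL13) and 732 and 603 CPM (the same mice, IL4+IL13+TNF) in members and 271, 218, 307 and 258 CPM in other cells, and without overlap. The *Slc3a2* log2 fold change was 1.21 ± 0.19. *Slc1a4*, a carrier of neutral amino acids such as serine, was at 31.5 and 20.5 CPM (mouse 1 and mouse 2, IL4+IL13) and 16.7 and 21.5 CPM (the same mice, IL4+IL13+TNF) in members and 4.02, 1.82, 2.65 and 3.88 CPM in other cells. Counts of *Slc1a4* were in 33% of the members and 6.57% of the other cells, and the log2 fold change was 2.89 ± 0.40 (edgeR adjusted p = 0.515, DESeq2 adjusted p = 5.84e-16). *Slc7a1*, which imports arginine and lysine, gave 2.04 ± 0.58, and 43.9 and 192 CPM (mouse 1 and mouse 2, IL4+IL13) and 78 and 100.1 CPM (the same mice, IL4+IL13+TNF) in members.

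Of the 12 cytosolic tRNA synthetases on the list, which charge tRNAs with their amino acids, 8 were higher in 4 of 4 samples and the median was 0.77. *Nars*, for asparagine, was at 529 and 448 CPM (mouse 1 and mouse 2, IL4+IL13) and 560.0 and 505 CPM (the same mice, IL4+IL13+TNF) in members and 324, 267, 333 and 287 CPM in other cells. The groups did not overlap and the log2 fold change was 0.76 ± 0.10 (edgeR adjusted p = 0.472, DESeq2 adjusted p = 0.000336). *Sars*, for serine, was at 347 and 323 CPM (mouse 1 and mouse 2, IL4+IL13) and 374 and 324 CPM (the same mice, IL4+IL13+TNF) against 176, 111, 213 and 156 CPM, a log2 fold change of 1.09 ± 0.16. The others above in all samples were *Eprs* (1.22 ± 0.31), *Mars* (0.92 ± 0.18), *Cars* (0.91 ± 0.17), *Iars* (0.87 ± 0.25), *Aars* (0.78 ± 0.20) and *Gars* (0.71 ± 0.20). With a score without *Trib3*, *Iars* was at 0.09 and *Mars* at 0.28, and with the top 5% of cells *Cars* was at 0.22. *Mars* lies beside *Ddit3* in the genome, and the counting did not use strand.

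Of 9 tested other targets, 4 were higher and 1 lower in 4 of 4 samples, with a median of 0.58. *Gdf15*, a secreted stress hormone, was at 125 and 418 CPM (mouse 1 and mouse 2, IL4+IL13) and 129 and 224 CPM (the same mice, IL4+IL13+TNF) in members and 103, 61.4, 64.4 and 48 CPM in other cells, a log2 fold change of 1.57 ± 0.46 (edgeR adjusted p = 0.928). *Ero1l*, the ER oxidase induced by CHOP, was at 85.1 and 72.9 CPM (mouse 1 and mouse 2, IL4+IL13) and 92.1 and 106 CPM (the same mice, IL4+IL13+TNF) against 28, 31.1, 38.8 and 40.9 CPM, with 1.36 ± 0.19 (edgeR adjusted p = 0.533, DESeq2 adjusted p = 1.15e-10) and no overlap between the groups. *Herpud1*, which takes part in ER-associated degradation, gave 0.77 ± 0.14. The pro-apoptotic *Bcl2l11*, a known CHOP target, pointed the other way, with 39.1 and 59.2 CPM (mouse 1 and mouse 2, IL4+IL13) and 19.1 and 23.9 CPM (the same mice, IL4+IL13+TNF) in members, 56.9, 101, 24.8 and 52.8 CPM in other cells and a log2 fold change of -0.71 ± 0.24 (edgeR adjusted p = 0.928).

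ER chaperones and other targets of ATF6 and IRE1-XBP1 differed less by their median. Their median log2 fold change over 18 tested genes was 0.26. In 4 of 4 samples 9 were higher and none lower, against 5.8% and 12.1% of all genes. DESeq2 called 2 higher (*Hspa5* and *Dnajb9*), against 0.567% of all genes. *Hspa5*, the chaperone BiP, was at 1665 and 1277 CPM (mouse 1 and mouse 2, IL4+IL13) and 1645 and 1509 CPM (the same mice, IL4+IL13+TNF) in members and 1102, 665, 1073 and 811 CPM in other cells. Its groups did not overlap and the log2 fold change was 0.76 ± 0.10 (edgeR adjusted p = 0.472, DESeq2 adjusted p = 0.0181). *Dnajb9*, a BiP co-chaperone, gave 0.97 ± 0.20, *Syvn1*, the ubiquitin ligase of ER-associated degradation, 0.82 ± 0.36, *Pdia4*, a protein disulfide isomerase, 0.73 ± 0.29, *Manf* 0.49 ± 0.14 and *Hsp90b1* 0.25 ± 0.10. Without IL4+IL13 mouse 2, *Syvn1* was at 0.48 and *Pdia4* at 0.40. Whether this list differs from the ATF4 targets was not tested, since lists are described here by counts and medians only. The genes that act on eIF2α itself, 4 kinases, the eIF2α subunit gene and a phosphatase subunit, had a median of -0.16, close to that of all genes.

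Mitochondrial chaperones and proteases had a median of 0.59 over 7 genes, 4 of them higher in 4 of 4 samples, against 5.8% of all genes. *Hspa9*, mitochondrial HSP70, was at 259 and 387 CPM (mouse 1 and mouse 2, IL4+IL13) and 472 and 514 CPM (the same mice, IL4+IL13+TNF) in members and 173, 106, 229 and 191 CPM in other cells, a log2 fold change of 1.23 ± 0.23 (edgeR adjusted p = 0.625, DESeq2 adjusted p = 0.0274). *Lonp1*, a matrix protease, was at 60 and 259 CPM (mouse 1 and mouse 2, IL4+IL13) and 96.2 and 144 CPM (the same mice, IL4+IL13+TNF) against 35.3, 37.6, 35.2 and 47.8 CPM and gave 1.64 ± 0.36. *Sqstm1*, the autophagy adaptor p62, was at 753 and 2034 CPM (mouse 1 and mouse 2, IL4+IL13) and 2165 and 2362 CPM (the same mice, IL4+IL13+TNF) in members and 569.9, 593, 825 and 820.3 CPM in other cells, with 1.28 ± 0.24 (edgeR adjusted p = 0.625, DESeq2 adjusted p = 0.0279). For *Lonp1* and *Hspa9* the member values of IL4+IL13 mouse 1 were the lowest of the 4. The 9 other lysosomal genes on the list of *Sqstm1* did not share its difference, and the median of that list was -0.01.

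Cytosolic heat shock genes were not higher in the members by their median, which was -0.29 over 7 genes. *Hspa1b*, an inducible HSP70, was at 0.0687 and 0 CPM (mouse 1 and mouse 2, IL4+IL13) and 1.72 and 0.279 CPM (the same mice, IL4+IL13+TNF) in members and 2.44, 3.57, 4.49 and 3.38 CPM in other cells. *Hspa1b* was lower in 4 of 4 samples at levels of few counts, with a log2 fold change of -3.44 ± 0.92 (edgeR adjusted p = 0.908, DESeq2 adjusted p = 0.0107). Immediate early genes had a median of -0.42 over 13 genes, 1 higher and 2 lower in 4 of 4 samples, against 5.8% and 12.1% of all genes. *Zfp36*, which encodes the mRNA-decay factor tristetraprolin, was at 191 and 259 CPM (mouse 1 and mouse 2, IL4+IL13) and 192 and 186 CPM (the same mice, IL4+IL13+TNF) in members and 328, 433, 286 and 299 CPM in other cells, a log2 fold change of -0.70 ± 0.11 (edgeR adjusted p = 0.569, DESeq2 adjusted p = 0.00824). *Fos* gave -0.65 ± 0.18. Neither list was thus higher in the members by its median. Targets of p53 had a median of 0.08 over 11 genes, with *Cdkn1a* at 0.59 ± 0.21 and *Trp53inp1* at 0.90 ± 0.32, and NRF2 targets 0.21 over 10.

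**Figure D4:**
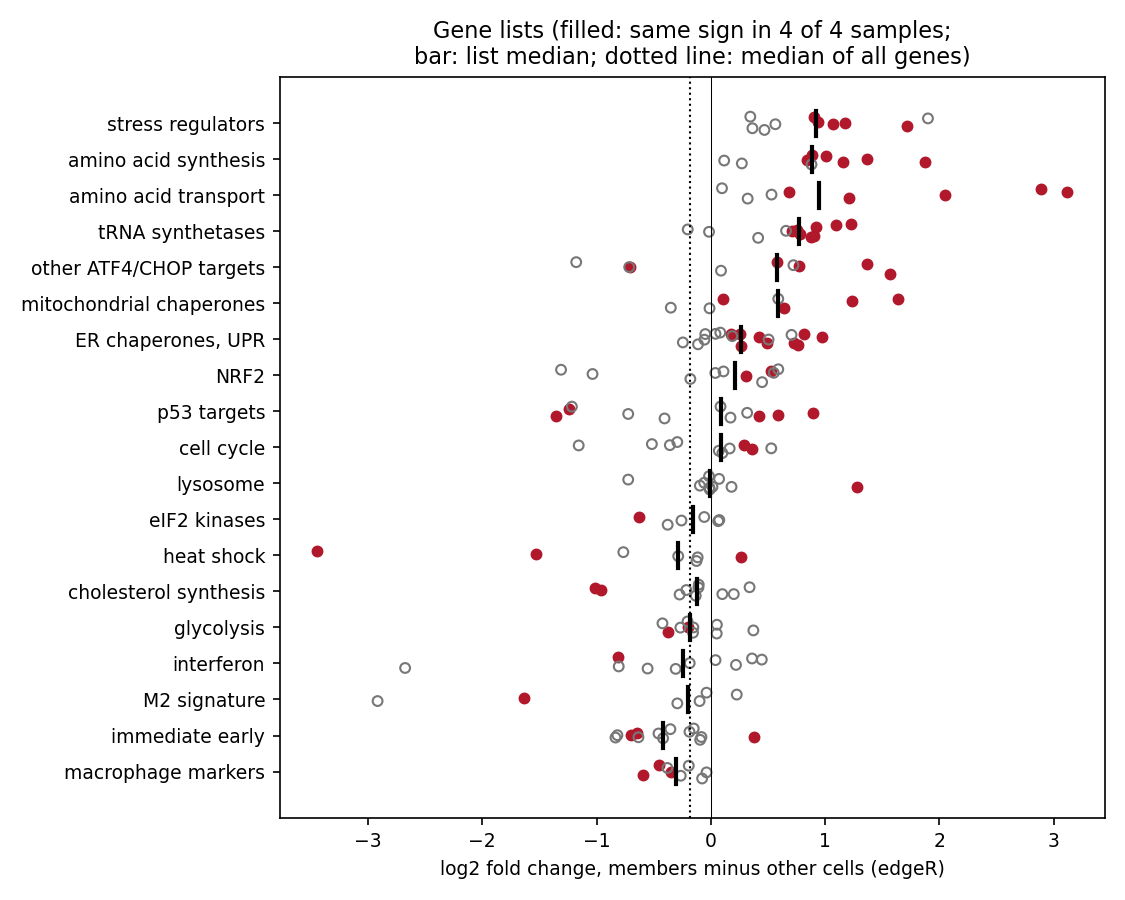
Fitted log2 fold change of members against other cells (horizontal axis) for each tested gene of 19 lists (vertical axis); filled red points have the same sign in 4 of 4 samples, open grey points do not, black bars are list medians and the dotted line is the median of all genes, -0.18. The 5 lists of ATF4 and CHOP targets have medians from 0.58 to 0.95, the ER list 0.26, and the immediate early and macrophage lists lie to the left. The list of further alternative activation genes, with a median of -1.71, is not among the 19.

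Macrophage markers were slightly lower in the members, with a median of -0.30 over 8 genes. None were higher and 3 lower in 4 of 4 samples, against 5.8% and 12.1% of all genes. *Csf1r*, the M-CSF receptor, was at 633 and 1165 CPM (mouse 1 and mouse 2, IL4+IL13) and 857 and 977 CPM (the same mice, IL4+IL13+TNF) in members and 839, 1269, 1086 and 1392 CPM in other cells, a log2 fold change of -0.35 ± 0.10 (edgeR adjusted p = 0.928). *Itgam*, the integrin CD11b, gave -0.59 ± 0.19, *Cd68* -0.46 ± 0.19 and *Lyz2* -0.38 ± 0.16, which was lower in 3 of 4 samples. *Cd68* was at -0.24 without IL4+IL13 mouse 2. The median of all genes was itself -0.18, so these differences are smaller when read against it.

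The 6 genes that the paper took as an M2 signature had a median of -0.20, close to the -0.18 of all genes. All but *Clec10a* were below 0 in the fit, and 1 was lower in 4 of 4 samples, against 12.1% of all genes. That gene was *Apoe*, the lipid carrier, at 183 and 32.5 CPM (mouse 1 and mouse 2, IL4+IL13) and 17.1 and 63.3 CPM (the same mice, IL4+IL13+TNF) in members and 238, 325, 90.2 and 93.8 CPM in other cells, with a log2 fold change of -1.63 ± 0.58 (edgeR adjusted p = 0.928). *Retnla*, which encodes RELMα, was at 3.85 and 8.01 CPM (mouse 1 and mouse 2, IL4+IL13) and 33.2 and 5.97 CPM (the same mice, IL4+IL13+TNF) in members and 89, 505, 6.76 and 25.7 CPM in other cells. Its log2 fold change was -2.92 ± 1.64, and it was higher in members of IL4+IL13+TNF mouse 1. It was -1.63 without IL4+IL13 mouse 2, -1.93 without IL4+IL13 mouse 1 and -0.39 with mean log2 values, and *Apoe* was -1.09 without IL4+IL13 mouse 2. The lectin genes *Mgl2*, *Clec10a* and *Mrc1* gave -0.29 ± 0.13, 0.23 ± 0.27 and -0.10 ± 0.21, and *Il10*, found in few cells, -0.04 ± 1.13. None of the 6 was called by edgeR or DESeq2, and the sign of *Clec10a*, *Mrc1* and *Il10* turned under other settings. *Clec4e*, the TNF-induced lectin Mincle, gave 0.04 ± 0.49, a sign that also turned.

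*Il6* counts were found in more of the members. It was detected in 24 of 115 members (20.9%) and 45 of 1324 other cells (3.40%), that is in 5 of 29, 9 of 49 and 10 of 32 members of 3 samples and in none of the 5 members of IL4+IL13 mouse 2. The summed *Il6* level was 3.98 and 0 CPM (mouse 1 and mouse 2, IL4+IL13) and 41.1 and 88.8 CPM (the same mice, IL4+IL13+TNF) in members and 0.129, 0.194, 1.73 and 6.57 CPM in other cells. The log2 fold change was 3.84 ± 0.92 (edgeR adjusted p = 0.826, DESeq2 adjusted p = 0.000151), and the highest single member reached 1153 CPM. A gene was tested if found in at least 5% of either class. *Il6* passed only through the members, where it was high, so its tests do not stand as support. The 13 tested inflammatory genes together had a median of 0.04, and with that limit *Il6* was the only gene among them that DESeq2 called higher. *Ccl5*, a chemokine, was lower in 4 of 4 samples, with 0.0687 and 0 CPM (mouse 1 and mouse 2, IL4+IL13) and 12 and 12.1 CPM (the same mice, IL4+IL13+TNF) in members and 2.91, 1.47, 88.2 and 65.2 CPM in other cells (-3.27 ± 0.60). Both genes depended on the setting. *Ccl5* ran from -4.24 (score without *Ddit3*) to -0.25 (mean of log2(CPM + 1) over cells). It was -0.37 with a score without *Atf3* and -0.44 with the top 12% of cells. *Il6* ran from 0.90 with that mean to 4.48 with the top 5% of cells.

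The 4 tested genes of the dendritic list had a median of -0.10. Of these, 1, *Ccr7*, was lower in 4 of 4 samples, against 12.1% of all genes, while *Zbtb46*, a dendritic transcription factor, gave 0.98 ± 0.78. *Ccr7*, the lymph node homing receptor, was at 0.0687 and 0 CPM (mouse 1 and mouse 2, IL4+IL13) and 0.164 and 1.23 CPM (the same mice, IL4+IL13+TNF) in members and 0.111, 0.461, 24 and 214 CPM in other cells, a log2 fold change of -6.90 ± 1.11 (edgeR adjusted p = 0.569, DESeq2 adjusted p = 0.0107). *Ccl17*, a chemokine on the alternative activation list, gave -6.15 ± 1.19. *Ccr7* counts were found in 13% of the members and 16.3% of the other cells, so the sums differ through a few cells with high counts. With the mean of log2(CPM + 1) over cells in place of the sums, the difference of *Ccr7* was -0.21 and that of *Ccl17* -0.17.

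Most other lists had medians closer to that of all genes. The median was 0.09 for 10 cell cycle genes, -0.12 for 10 cholesterol synthesis genes, -0.18 for 10 genes of glycolysis and glucose uptake and -0.25 for 10 interferon genes. The exception was the list of 10 further genes of alternative activation, with -1.71, the lowest median of all lists with more than 1 tested gene. None of these 10 was higher and 3 were lower in 4 of 4 samples, against 5.8% and 12.1% of all genes. DESeq2 called 1 of them lower. How far this median rests on genes found in few cells was not tested.

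The genes that followed the score across all kept cells included many of the same pathway. For each of 10630 genes with counts in 25% or more of kept cells, the Spearman rho with the score was taken within each sample and averaged over the 4. Leaving out the selecting genes and entries with Gm numbers or names ending in Rik, which took ranks 2 and 6 (*Gm9347* and *Gm7901*), the 10 highest values were those of *Phgdh* (0.341), *Atf4* (0.325), *Sars* (0.318), *Mthfd2* (0.311), *Slc3a2* (0.286), *Nars* (0.284), *Aars* (0.281), *Gdf15* (0.280), *Ghitm* (0.269) and *Ifrd1* (0.264). *Ghitm* encodes an inner mitochondrial membrane protein and *Ifrd1* a transcriptional co-regulator, and neither was on a list. The rho of *Atf4* was 0.288 and 0.212 in mouse 1 and mouse 2 without TNF, 0.355 and 0.445 in the same mice with it, and that of *Phgdh* 0.316, 0.254, 0.386 and 0.409 in the same order. In both, IL4+IL13 mouse 2 was the lowest sample. Of the 38 measured genes of the 5 stress lists 36 had a positive mean rho, with a median of 0.204, where the median of all 10630 genes was 0.033 and 74.3% were positive. The 50 highest genes included 22 of the 38. At the other end stood *Tmsb4x* (-0.225), which encodes an actin-binding peptide, *S100a4* (-0.216), *Uqcrh* (-0.199), a subunit of respiratory complex III, *Csf1r* (-0.197) and *Cst3* (-0.186). These values are weak, they are over cells that share plates and depth, and they are given without a test.

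Stress genes also followed the score without the members. Among the 1324 other cells alone, 35 of the 38 stress genes had a positive mean rho with the score, with a median of 0.148 against 0.025 for all genes, of which 71.9% were positive, and 14 of the 38 were among the 50 highest. *Phgdh* (0.269), *Mthfd2* (0.242), *Sars* (0.234), *Atf4* (0.230) and *Gdf15* (0.226) were again near the top. Entries with Gm numbers, which can share reads with expressed genes, stood beside them here too.

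**Figure D5:**
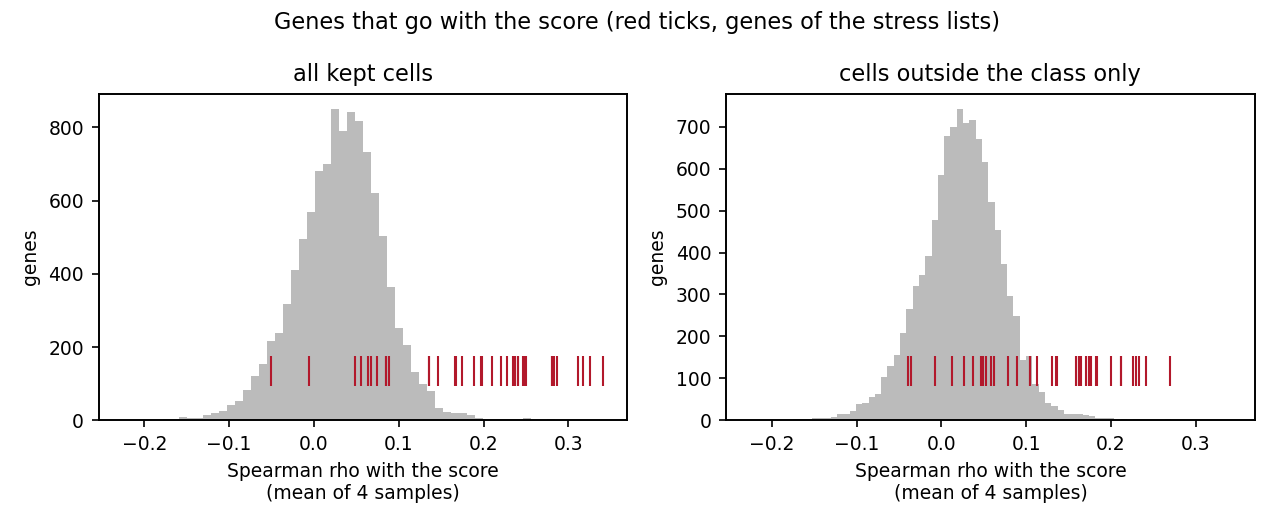
Histograms of the mean Spearman rho with the score (horizontal axis) over 10630 genes (vertical axis, number of genes), for all kept cells (left) and for the 1324 cells outside the class (right); red ticks mark the 38 genes of the stress lists, at an arbitrary height. The ticks lie to the right of the bulk in both, with medians of 0.204 and 0.148.

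TNF within the members was compared over 4 sums, of 29 and 5 cells without TNF and of 49 and 32 cells with it. By edgeR 0 of 14333 genes were called (0%) and 467 had an unadjusted p under 0.05, and DESeq2 called 51. Without IL4+IL13 mouse 1, which leaves the 5 members of mouse 2 as the only sum without TNF, edgeR called 1712. *Clec4e* was at 29.9 and 4.25 CPM in members with IL4+IL13 and at 699.96 and 1086 CPM when TNF was added, with a log2 fold change of 5.65 ± 1.04 (SE). In the other cells it was 5.14 ± 0.18 and *Clec4e* was the only gene of 16487 called there (edgeR adjusted p = 0.0156, with 1379 genes at an unadjusted p under 0.05). That fit had 2 sums per treatment and no mouse block, so 1 call does not mean that only 1 gene differed. *Saa3*, an acute phase protein, was at 0 and 0.472 CPM in members without TNF, and at 276 and 217 CPM with it. *Acod1*, which makes itaconate, was at 0.2004 and 0.944 CPM without and 96.3 and 169.5 CPM with TNF. *Saa3* and *Acod1* were named here after their values were seen. The treatments did not overlap within the members for these 3 genes. With 2 sums per treatment this is a weak mark, and how many of all genes shared it was not counted.

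Stress genes within the members had a median difference between treatments near that of all genes. Members of both treatments had passed the same cut on a stress score, and the other cells lay below it. The selection thus shapes these differences, and they do not show how TNF acts on stress genes. Over 44 of them, the median log2 fold change of TNF against no TNF was 0.11 in the members and 0.18 in the other cells, where the medians over 13951 genes were 0.08 and -0.0041. In the members 21 of the 44 (47.7%) were higher with TNF in 2 of 2 mice and 3 were lower. Of all 13951 genes, 4288 (30.7%) were higher and 2891 lower in 2 of 2 mice. *Atf4* gave 0.09 in members and 0.16 in other cells, *Nupr1* 0.09 and 0.32, and *Ppp1r15a* 1.30 and 0.54. The difference of the member effect between the treatments was tested as an interaction. By edgeR 0 of 17215 genes were called (0%), with 392 at an unadjusted p under 0.05, and DESeq2 called 20. The interaction, that is the log2 fold change of members against other cells with TNF minus that without, was 0.02 for *Atf4* and -0.08 for *Nupr1*.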

How the data were processed

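Single BMDMs were profiled by Smart-seq2. The authors demultiplexed the reads with bcl2fastq 2.19.1 and, per the methods, counted fragments per gene with featureCounts 1.6.3 on mm10 without using strand; the deposited values used here are raw counts of fragments per gene and well. Of 1524 wells, the 1439 with at least 200000 gene fragments, 5000 genes and at most 10% mitochondrial fragments were kept and 85 left out. No doublet caller was run. The 92 spike-in rows stayed out of the totals and tests. The 11 columns of no mapped well were not used, and the 4 samples without a group in the labels entered no comparison.

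The replicate was the sample, that is a mouse with a treatment. The series describes 2 separate mice, and the numbers 1 and 2 of the sample names were taken as these. The 4 samples thus come from 2 mice and are not 4 independent animals, which limits every test and count over 4 samples. Counts were summed per mouse, treatment and class (members, other cells) into 8 sums with the sample as a block, which leaves 3 residual degrees of freedom, and fitted in edgeR 4.0.16 (TMM, quasi-likelihood test, R 4.3.3) with Benjamini-Hochberg adjustment over all genes tested at 0.05. For members against other cells, genes were tested if found in at least 5% of the members or of the other cells and passing edgeR's count filter. A gene high in 1 class could thus enter through that class alone. The p-values of this comparison measure the spread of the difference over the 4 samples. For TNF within members they measure the spread between the member sums of a treatment. The class members and gene lists were chosen with earlier results of these data known, and the genes named are the 5 selecting genes, examples of each list, the M2 signature with *Clec4e*, and the 10 highest score correlates with a symbol that is not a Gm number and does not end in Rik. Alternatives used DESeq2 1.42.0, limma 3.58.1, other normalizations, filters, thresholds and scores, and each sample left out in turn. Both treatments of a mouse share its number. Deviations of same-numbered member sums from their treatment means correlated at 0.173 over 14338 genes, and 0.561 for other cells. For TNF within members the mouse as a block was an alternative, and for the other cells it was not run.

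In simulated data for the comparison of members with other cells (10688 genes), edgeR recovered 100% and DESeq2 98% of 2-fold changes at a dispersion of 0.02. At a dispersion of 0.1 they recovered 25% and 31%, and both recovered 98% of 4-fold changes. False calls were 7 with edgeR and 6 with DESeq2 at a dispersion of 0.02, and 3 and 13 at 0.1. Which dispersion is nearer to these data was not tested. Each simulation had a fixed dispersion. In the data, the voom sample weights ran from 0.25 (members of IL4+IL13 mouse 2) to 2.66 (members of IL4+IL13+TNF mouse 1). Recovery and false calls with sums of such unequal weight were not tested.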

Additional observations from a re-analysis of the deposited data

Results flagged for a closer look

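Of 77 genes checked, in 5 (6.49%) members lay below other cells in both IL4+IL13 samples and above them in both IL4+IL13+TNF samples, a pattern shown by 6.7% of all 17215 genes tested, so its frequency was near that of all genes. The interaction, in log2 units with TNF minus without, was 2.51 for *Ddit4*, a stress-induced inhibitor of mTORC1, 1.97 for *Jdp2*, a bZIP repressor, 1.34 for *Lars*, the leucyl-tRNA synthetase, 2.10 for *Tnfrsf10b*, a death receptor, and 0.92 for the lectin gene *Clec10a*. None of the 5 interactions passed the threshold in edgeR (adjusted p = 0.99966 for each). The unadjusted p was lowest for *Lars*, 0.0415. The log2 ratios of members to other cells of *Lars* were -0.79 and -0.95 without TNF, and 0.40 and 0.51 in the samples that received it.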

How the results depend on the processing

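The calls depended on the tool. DESeq2 called 90 genes higher and 163 lower in members, 20 by interaction and 51 for TNF within members, where edgeR called 0 in each, and limma on mean log2 values called 1 higher. The cause was not tested. Alternatives chosen after seeing the data were voom with sample weights, which called 4 higher (*Phgdh*, *Nupr1*, *Cox6a2*, *Nars*) and 3 lower (*Gm37390*, *Rasgrp1*, *Fam196a*), and 3 other edgeR quasi-likelihood settings, which called 0; genes of these small counts were named after their values were seen. Leaving out 1 sample gave 0 to 1 lower (*Aldh1a2*, without IL4+IL13 mouse 2) and 0 higher. For TNF within members it gave 0 to 1712: 1712 without IL4+IL13 mouse 1, which leaves 1 sum of 5 cells assumed to vary like the others, 2 (*Clec4e*, *Saa3*) without IL4+IL13+TNF mouse 1 and 1 (*Saa3*) without IL4+IL13+TNF mouse 2. No gene filter gave 101. With the mouse as a replicate block it stayed at 0, and without the block the counts of members against other cells stayed at 0; the block reversed the sign of 1 named gene, *Il10* (0.33 without it).

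The median of the 48 stress genes, 0.81, was 1.53 with limma and 0.55 with the score without *Trib3*. That of the ER list, 0.26, was 0.18 with no gene filter and without *Trib3*, 0.62 with limma, 0.34 for the top 5%, 0.36 for the top 12%, 0.37 without *Ddit3*, 0.41 without *Chac1* and 0.34 with voom. The share difference ran from 5.02 to 7.95 points over the other settings, with an exact p of 0.667 for the top 12% and without *Ddit3* or *Trib3*, and from 3.25 to 9.86 with 1 sample left out. Of the 57 genes followed across all settings, signs turned for 4. *Clec10a* was -0.13 with limma, -0.38 for the top 5%, -0.14 without *Atf3* and from -0.074 to 0.39 with 1 sample left out. *Mrc1* was 0.0068 without *Asns*, and from -0.25 to 0.13 with 1 sample left out. *Il10* was 0.13 with limma, 0.17 with the thinned score, 0.36 without *Ddit3*, 0.13 without *Asns*, 0.080 without *Atf3*, 0.35 with voom, 0.39 with both newer edgeR settings and from -0.91 to 0.76 with 1 sample left out. *Clec4e* was -0.029 with DESeq2, -0.095 with no gene filter, -0.091 for the top 5%, -0.073 without *Ddit3*, -0.13 without *Trib3*, -0.0054 without *Chac1*, -0.41 without *Asns*, and from -0.29 to 0.53 with 1 sample left out. Over all lists, 123 of 221 genes turned sign in at least 1 alternative, 13 of the 48 stress genes among them. The sign turned in 10 alternatives for *Lars*, 4 for *Tnfrsf10b* and 1 each for *Ddit4* and *Jdp2*. The 57 genes were drawn up with their signs known, so the few reversals among them are no sign of stability. Of these 57, 48 moved by over 1.5 times in some alternative, 39 with limma, 20 with the score without *Trib3* and 11 without IL4+IL13 mouse 2 (*Apoe*, *Atf5*, *Cd68*, *Cdkn1a*, *Clec10a*, *Clec4e*, *Il10*, *Mrc1*, *Pdia4*, *Retnla* and *Syvn1*), of which 5 also moved so without IL4+IL13 mouse 1, 3 without IL4+IL13+TNF mouse 1 and 4 without IL4+IL13+TNF mouse 2. *Syvn1* was 0.24 with the top 8% taken within each sample, and *Cd68* -0.083 without *Trib3*. At 5 members in 1 sample, differences of genes found in few cells were not resolved.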
